A study of Mus musculus with 2 samples.

Results

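The signal recognition particle (SRP) genes described here are the RNA genes Rn7s1 and Rn7s2, the protein genes Srp9, Srp14, Srp19, Srp54a, Srp68 and Srp72, and the translocon genes Sec61a1 and Sec61b. These 10 genes were taken by gene symbol from the 55536 Ensembl genes of the deposited tables, and all 10 were found. They were measured by total RNA-seq in neutrophils, a primary cell isolated from the spleen of adult male mice aged 65 days. The mice were of the strain B6CASTF1/J, F1 hybrids of C57BL/6 females and CAST/EiJ males. There was 1 group of 2 libraries, replicate 1 and replicate 2, and 300 ng of RNA went into each, with synthetic ERCC transcripts spiked in. The labels number them as biological replicates with separate biosample identifiers but the same donor identifier, so the spread between them may be partly technical. With 1 group there is no comparison between conditions, and the values are levels, their spread over the pair of libraries and the difference between these libraries.

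The SRP is a cytosolic complex of 1 RNA, called 7SL, and 6 proteins. It binds the signal sequence of a secretory or membrane protein as that sequence leaves the ribosome, slows translation, and docks on its receptor at the endoplasmic reticulum (ER). The ribosome is then passed to the Sec61 channel, through which the growing chain enters the ER. Neutrophil granule proteins and surface receptors are made by this route during maturation. 7SL is transcribed by RNA polymerase III, whereas the proteins come from ordinary mRNAs.

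The 7SL genes come first, since the likeness of their sequences decides what can be counted. Rn7s1 (ENSMUSG00000099021.1) and Rn7s2 (ENSMUSG00000099250.1) lie on chromosome 12, Rn7s1 on the plus strand and Rn7s2 on the minus strand, in mm10 with GENCODE M21 annotation. Both are single-exon genes of biotype misc_RNA, 300 nt long, and they differed at 0 positions. The other gene named after 7SL in the annotation, Rn7s6, lies on chromosome 6 and is 291 nt long.

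The Srp54 genes raise the same question for the protein that reads the signal sequence. Mouse chromosome 12 carries Srp54a, Srp54b and Srp54c next to each other on the plus strand. The coding sequences of transcripts Srp54a-202 and Srp54b-201, 1512 nt each, had 0 substitutions between them. That of Srp54c-202 differed from either at 6 positions, an identity of 99.6%. The stretch below, coding positions 906 to 965, holds 3 of these 6 positions. It is shown because in the mm10 sequence it sets Srp54c apart from the others but not Srp54a from Srp54b. The CAST/EiJ alleles that these F1 mice also carry were not compared. Capitals mark the 3 differing positions.
Srp54a-202, chr12:55102487-55102546: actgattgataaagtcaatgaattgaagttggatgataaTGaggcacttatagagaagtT
Srp54b-201, chr12:55177547-55177606: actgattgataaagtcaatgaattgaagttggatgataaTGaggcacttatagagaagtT
Srp54c-202, chr12:55252791-55252850: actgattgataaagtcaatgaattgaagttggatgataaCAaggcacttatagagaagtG

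How much of each gene is unique was measured on the mm10 transcripts, without CAST/EiJ sequence. The measure was the share of a gene's windows of 100 nt that also occur in the transcripts of another gene. For Rn7s1 and Rn7s2 it was 100% of windows, and for Rn7s6 it was 38.5%. For Srp54a it was 66.6%, for Srp54b 87.6% and for Srp54c 89.5%. Sec61b shared 4.33% of its windows with Gm10320, and Srp9 shared 2.78% with the processed pseudogene Gm13736. Srp14, Srp19, Srp68, Srp72 and Sec61a1 shared 0 windows with any other gene. The separate levels of Rn7s1 and Rn7s2 were therefore not resolved, those of the Srp54 genes are uncertain, and 7SL below means the sum of Rn7s1 and Rn7s2.

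The libraries were of like depth, with 18387963 expected counts in replicate 1 and 18090108 in replicate 2. An expected count is the estimated number of reads of a gene after reads that match several genes have been divided among them. Levels are deposited TPM, the length-scaled share of a library's transcripts, from the tables in the layout of RSEM, given as mean ± SD with n = 2 where no library is named. Values called kallisto come from the second quantification of the same libraries. The TPM of a library sums to a fixed total over coding and noncoding entries, so a library with more 7SL has lower TPM for other genes. On a gene with 1 kb of effective length, 1 count corresponded to 0.0458 TPM in replicate 1 and 0.0538 TPM in replicate 2. All 8 neutrophil marker genes were present in both libraries, and their median level was 2348 (replicate 1) and 3324 (replicate 2) TPM.

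7SL was the most abundant RNA among these genes by more than 3 orders of magnitude on the TPM scale. It held 1912252 expected counts in replicate 1, or 10.4% of the library (exact 95% binomial interval 10.3855 to 10.4134%). In replicate 2 it held 1173331 counts, or 6.49% (6.475 to 6.497%). The intervals allow for counting error alone, because PCR copies of a molecule were not marked. The mean share was 8.44% ± 2.77, and the libraries lay far outside each other's counting intervals.

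In TPM, which divides by length, 7SL stood at 438297 in replicate 1 and 315859 in replicate 2, a mean of 377078 ± 86577. This was 43.8% of all TPM in replicate 1 and 31.6% in replicate 2, while all protein-coding genes together took 32.8% and 45.4% in those libraries. 7SL thus outweighed the protein-coding genes in replicate 1 and not in replicate 2. The deposited tables gave Rn7s1 and Rn7s2 equal expected counts and TPM in each library. For Rn7s1 the expected count was 956126 in replicate 1 and 586665 in replicate 2. The authors' posterior SD of that count was 22084 in replicate 1 and 17863 in replicate 2.

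The kallisto table placed 7SL at 505326 TPM in replicate 1 and 349544 TPM in replicate 2. Its estimated counts were lower, 1247592 in replicate 1 and 729876 in replicate 2, which is 6.19% and 3.803% of its totals. TPM divides counts by the effective length, for which kallisto used 86.9 nt in replicate 1 and 92.7 nt in replicate 2, whereas that of RSEM was 200 nt in both. Replicate 1 was above replicate 2 by each measure and each quantifier.

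**Figure D1:**
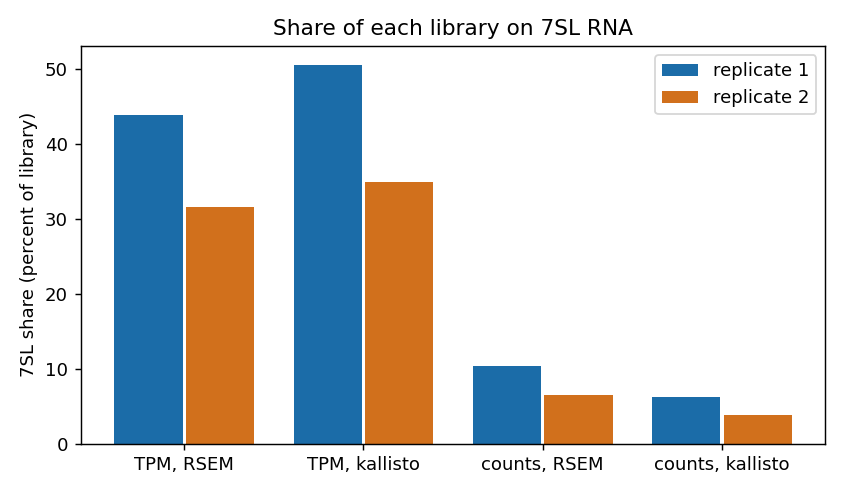
Share of each library on 7SL RNA (vertical axis, percent) by TPM and by counts from both quantifications, with replicate 1 left of replicate 2 and 1 bar per library. By RSEM 7SL took 43.8% of TPM in replicate 1 and 31.6% in replicate 2, and the bars for replicate 1 are the taller ones in all 4 pairs.

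Other genes with 7SL sequence held few reads. Rn7s6 held 12.6 counts in replicate 1 and 16.4 in replicate 2, or 3.03 and 4.61 TPM, and by kallisto 31.01 and 21.005 counts. Since 74 of its windows also occur in Rn7s1 and Rn7s2, even this level is uncertain. The gene Gm26461, which shares 5 windows with Rn7s1, held 22.01 counts in replicate 1 and 10.03 in replicate 2. The annotation lists 562 genes of biotype misc_RNA. Those other than 7SL and Rn7sk held 759 counts together in replicate 1 and 725 in replicate 2. The misc_RNA genes with the most counts after 7SL were Rn7sk, Terc (the RNA of telomerase, 103 and 116 counts in replicates 1 and 2) and Gm27533 (85.9 and 85.4 counts). Nearly all reads of the class thus fell on 7SL and Rn7sk.

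Set against other polymerase III RNAs, 7SL was the highest. Rn7sk, the 7SK RNA that holds the elongation factor P-TEFb inactive, stood at 39005 TPM in replicate 1 and 57616 TPM in replicate 2, an order opposite to that of 7SL. Rpph1, the RNA of RNase P, stood at 9811 TPM in replicate 1 and 10625 TPM in replicate 2. Rmrp, the RNA of RNase MRP, is annotated under 2 gene IDs at the same place on chromosome 4, whose reads cannot be told apart. One held 4308 TPM in replicate 1 and 4145 TPM in replicate 2, and the other 1726 and 1316 TPM. The vault RNA Vaultrc5 held 12 counts in replicate 1 and 19 in replicate 2. The Y RNA Rny1 held 2 counts in replicate 1 and 1 count in replicate 2, and Rny3 was listed at 0 in both. The effective lengths of Rny1 and Rny3 were 12 nt and 2 nt, so almost no fragment could be assigned to them and no level can be given for either.

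**Figure D2:**
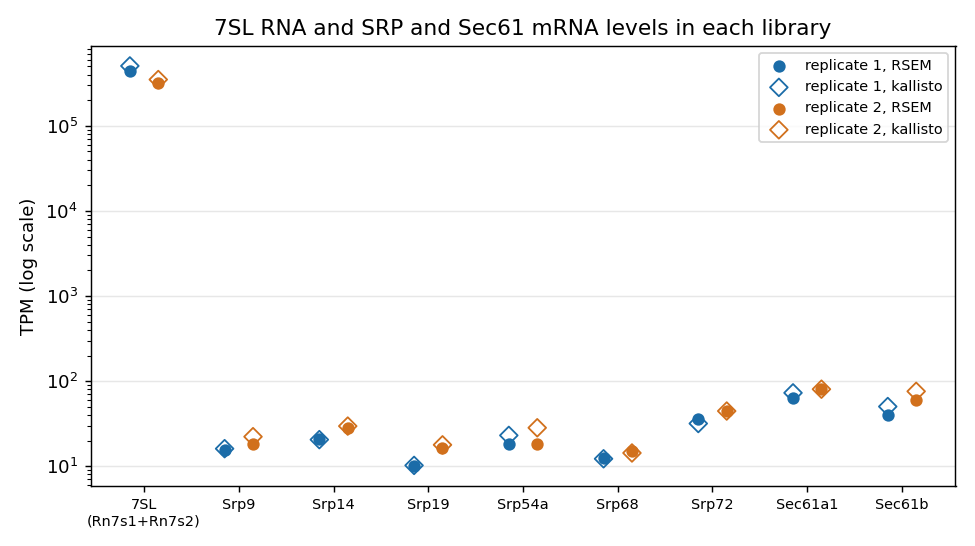
TPM on a log scale of 7SL and of the 8 protein genes in replicate 1 (left) and replicate 2 (right) of each pair, with filled circles for RSEM and open diamonds for kallisto. 7SL stands at 438297 and 315859 TPM by RSEM, and the mRNAs lie between 10.1 TPM (Srp19, replicate 1) and 79.8 TPM (Sec61a1, replicate 2).

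The mRNAs of the 6 SRP proteins were at moderate levels. In replicate 1 their median was 16.7 TPM and in replicate 2 it was 18.2 TPM, a mean of 17.5 ± 1.06 TPM. Over the 14633 protein-coding genes above 0 TPM, the median was 4.03 in replicate 1 and 4.87 in replicate 2. All 6 were above 10 TPM in both libraries. The highest, Srp72, was about 3 times the lowest, Srp19, at mean levels of 40.3 TPM and 13.2 TPM.

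Srp9 and Srp14 form a heterodimer on the Alu domain of 7SL, the end of the particle that slows translation. Srp9 (chromosome 1, 182124737 to 182132407) stood at 15.3 TPM in replicate 1 and 18.04 TPM in replicate 2. Srp14 (chromosome 2, 118475850 to 118479711) stood at 21.1 TPM in replicate 1 and 28.4 TPM in replicate 2. Srp14 was above Srp9 in both libraries. The pseudogene Gm13736, with which Srp9 shares windows, held 20.7 counts in replicate 1 and 70.1 in replicate 2.

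The other 4 proteins sit on the S domain. Srp19, which binds the RNA and lets the signal-binding subunit join, stood at 10.1 TPM in replicate 1 and 16.2 TPM in replicate 2. Srp68 (chromosome 11, 116245166 to 116274217), which bends the RNA and pairs with Srp72, stood at 12.6 TPM in replicate 1 and 15.1 TPM in replicate 2. Srp72 (chromosome 5, 76974683 to 76999937) stood at 36.0 TPM in replicate 1 and 44.5 TPM in replicate 2. Srp68 and Srp72, partners in the particle, thus lay apart, and the part of Srp72 that is not protein-coding is given with the transcript classes.

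Srp54a encodes the GTPase that binds the signal sequence. It stood at 18.1 TPM in replicate 1 and 18.4 TPM in replicate 2, a spread of 0.219 TPM (SD, n = 2). By kallisto it stood at 23.0 TPM in replicate 1 and 28.3 TPM in replicate 2. Its paralog Srp54b had 10.7 and 10.5 TPM in replicates 1 and 2 by RSEM, but kallisto gave it 4.53 and 3.49 TPM. Srp54c had 3.94 and 5.38 TPM by RSEM, and kallisto gave 3.87 and 6.18 TPM. The sum over the 3 genes was less dependent on the quantifier, 32.8 TPM in replicate 1 and 34.3 TPM in replicate 2 by RSEM, where kallisto gave 31.4 and 37.97 TPM. Srp54a took 54.4% ± 1.14 of the sum by RSEM and 73.9% ± 0.904 by kallisto, a gap many times the spread between libraries. In TPM the division between Srp54a and Srp54b therefore depended on the quantifier. In counts, Srp54b held 176 in replicate 1 and 366 in replicate 2 by RSEM, and 179 and 161 by kallisto. By RSEM the processed transcript Srp54b-202, of 580 nt, took 85.0% of the TPM of Srp54b in replicate 1 and 46.3% in replicate 2.

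The Sec61 mRNAs were the most abundant of the 8. Sec61a1 (chromosome 6, 88503579 to 88518905), the pore-forming subunit, stood at 62.8 TPM in replicate 1 and 79.8 TPM in replicate 2. Sec61b (chromosome 4, 47474658 to 47483242), a small subunit of the same channel, stood at 40.3 TPM in replicate 1 and 60.2 TPM in replicate 2. Their median was 60.8 ± 13.1 TPM. Sec61a1 was at the percentile 93.5 of the protein-coding genes above 0 TPM and Sec61b at 90.5, against 69.6 to 88.2 for the SRP proteins.

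Ordered by mean TPM the mRNAs ran Sec61a1, Sec61b, Srp72, Srp14, Srp54a, Srp9, Srp68 and Srp19. The step between neighbours was taken as a log2 ratio of TPM within each library. The step from Srp72 to Srp14 was the widest, 0.71 ± 0.08. That from Sec61a1 to Sec61b was 0.52 ± 0.17 and that from Srp9 to Srp68 was 0.27 ± 0.02. Srp54a and Srp9 differed by 0.13 ± 0.15 and Srp68 and Srp19 by 0.11 ± 0.30, less than the spread between libraries. The deposited TPM intervals overlapped in both libraries for these pairs. Those of Srp9 and Srp68 did so too, at 13.4 to 16.6 and 11.1 to 13.8 TPM in replicate 1. The intervals of Srp72 and Srp14, and those of Sec61a1 and Sec61b, overlapped in neither library. Kallisto exchanged the places of Srp14 and Srp54a and those of Srp68 and Srp19 and kept the other places.

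The log2 ratio of 7SL TPM over the median TPM of the 6 SRP proteins was 14.68 in replicate 1 and 14.08 in replicate 2, a mean of 14.38 ± 0.42. This is a ratio of 26222 in replicate 1 and 17336 in replicate 2. Among the SRP proteins the same log2 ratio ran from a mean of 13.18 over Srp72 to 14.83 over Srp19. Over the Sec61 median it was 13.05 in replicate 1 and 12.14 in replicate 2. The size of these ratios rests in part on the short effective length of 7SL. With expected counts and no length correction the log2 ratio over the SRP median was 11.38.

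The 7SL RNA and the mRNAs of its proteins are different kinds of transcript, and within the mRNAs the annotated transcript classes differed as well. By RSEM, protein-coding transcripts made up 98.3% ± 2.38 of the TPM of Srp14 and 98.6% ± 0.884 of that of Sec61b. They made up 67.3% ± 4.21 for Srp9, 63.6% ± 4.72 for Srp54a, 71.6% ± 13.5 for Srp68 and 55.6% ± 16.0 for Srp19. For Sec61a1 the share was 41.5% ± 4.40, and for Srp72 it was 27.9% ± 2.25. The kallisto shares were 76.9% ± 9.68 for Srp14, 89.2% ± 7.14 for Srp68 and 22.4% ± 18.6 for Srp19. They were 99.2% ± 0.635 for Sec61b, 65.4% ± 0.255 for Srp9 and 72.0% ± 1.34 for Srp54a. For Sec61a1 and Srp72 they were 34.8% ± 9.63 and 34.2% ± 0.367.

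In TPM, transcripts annotated as retaining an intron took most of Srp72. They were 73.7% of its TPM in replicate 1 and 70.5% in replicate 2 by RSEM, and 65.6% and 66.1% by kallisto. The leading transcript of Srp72 by RSEM was a retained-intron transcript of 660 nt (ENSMUST00000150661.1), with 34.7% of the TPM in replicate 1 and 33.7% in replicate 2. In expected counts the protein-coding Srp72-201, of 3625 nt, was ahead, with 598 counts in replicate 1 and 797 in replicate 2 against 153 and 156 for the shorter transcript. The gene held 1097 counts in replicate 1 and 1262 in replicate 2, so Srp72-201 held most of its counts. By kallisto the lead differed between the libraries. Srp72-201 had 25.6% in replicate 1 and 29.2% in replicate 2, and the shorter transcript 26.8% and 22.0%. Of the 9 annotated transcripts of Srp72, 7 are of the retained-intron class.

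For Sec61a1, retained-intron transcripts took 46.8% in replicate 1 and 47.4% in replicate 2 by RSEM, and 45.9% and 50.5% by kallisto. Its single protein-coding transcript, Sec61a1-201, led with 41.5% ± 4.40 by RSEM and 34.8% ± 9.63 by kallisto. In expected counts Sec61a1-201 held 1615 of the gene's 2243 in replicate 1 and 2030 of 2729 in replicate 2. As background, 3569 protein-coding genes had a retained-intron transcript and a mean of at least 10 TPM, and their median retained-intron share was 22.7% ± 1.73 by RSEM and 22.3% ± 1.88 by kallisto. Srp72 lay at the percentile 97.8 of these genes by RSEM and 96.6 by kallisto, and Sec61a1 at 84.4 and 86.9. Srp9 had 32.7% ± 4.22, Srp54a 36.4% ± 4.72 and Srp19 16.1% ± 2.59 by RSEM. Sec61b had 1.42% ± 0.884. No retained-intron transcript is annotated for Srp14 or Srp68.

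Counting protein-coding transcripts alone changed the order of the genes by RSEM. Sec61b then stood at 49.6 ± 14.4 TPM, Sec61a1 at 29.8 ± 8.12 and Srp14 at 24.4 ± 5.62 TPM. Srp54a, Srp72, Srp9 and Srp68 came close together at 11.6 ± 0.997, 11.3 ± 2.59, 11.2 ± 0.587 and 10.04 ± 3.13 TPM, and Srp19 stood at 6.98 ± 0.290 TPM. Srp72 and Srp68, far apart on the gene level, were close on this scale, with 9.46 and 7.83 TPM in replicate 1 and 13.1 and 12.3 TPM in replicate 2. Protein-coding Srp19 depended on the quantifier. Its leading transcript was Srp19-201, protein-coding, at 55.6% ± 16.0 by RSEM, whereas kallisto put a processed transcript of 744 nt (ENSMUST00000131713.7) first at 51.9% ± 22.5.

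**Figure D3:**
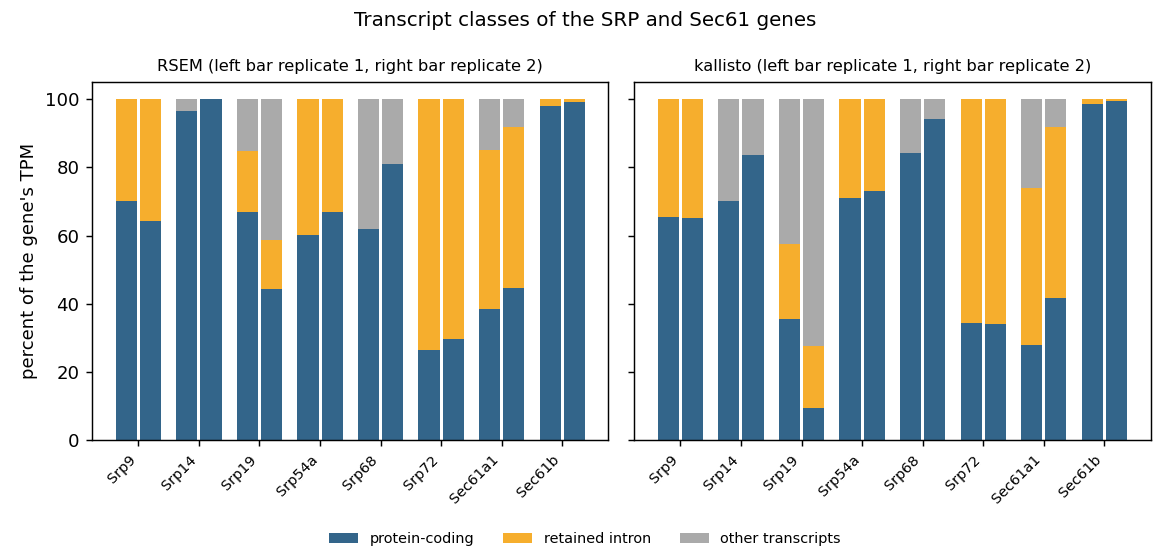
Percent of each gene's TPM (vertical axis) on protein-coding, retained-intron and other transcripts for the 8 protein genes, by RSEM on the left and kallisto on the right, with 1 bar per library. Retained-intron transcripts are 73.7% of Srp72 in replicate 1 and 70.5% in replicate 2 by RSEM, while Srp14 and Sec61b are almost wholly protein-coding there.

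The wider entry pathway was described from lists of 55 partner genes found in the tables. Of these, 54 were at 1 TPM or more in both libraries and 36 at 10 TPM or more. In replicate 1 their median was 15.4 TPM and in replicate 2 it was 18.4 TPM, close to the SRP protein median.

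The SRP receptor subunits were far apart. Srpr, the GTPase that meets Srp54, stood at 33.0 TPM in replicate 1 and 38.9 TPM in replicate 2, and Srprb, its membrane anchor, at 1.59 and 2.18 TPM. Kallisto gave a like gap, 39.0 and 46.9 TPM for Srpr and 1.66 and 2.25 TPM for Srprb. Of the remaining Sec61 genes, Sec61a2, the second alpha subunit, stood at 4.15 TPM in replicate 1 and 5.54 TPM in replicate 2. Sec61g, the gamma subunit, stood at 2.15 and 2.64 TPM by RSEM, against 19.9 and 57.6 TPM from kallisto. It shares 321 windows with the pseudogene Gm10177, which held 121 counts in replicate 1 and 291 in replicate 2 by RSEM and 0 in both by kallisto. The level of Sec61g relative to Sec61a1 and Sec61b is therefore not settled by these tables.

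Translocon partners ran from Tram2, at 6.84 TPM in replicate 1 and 6.79 TPM in replicate 2, to Tram1, at 37.2 and 51.4 TPM. Tram1 helps some signal sequences into the channel. The 4 subunits of the TRAP complex, which sits beside Sec61, were all above 10 TPM. Ssr2 was the lowest at 20.2 TPM in replicate 1 and 31.9 TPM in replicate 2, and Ssr3 the highest at 33.4 and 44.7 TPM. In signal peptidase, which removes the signal sequence, Spcs3 had the lowest mean, at 14.3 TPM in replicate 1 and 17.2 TPM in replicate 2. Its catalytic subunit Sec11c was the highest, at 74.4 and 103.75 TPM, while the alternative catalytic subunit Sec11a stood at 17.3 and 16.1 TPM.

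The 12 oligosaccharyltransferase genes, which add N-glycans to the entering chain, had median levels of 18.8 (replicate 1) and 25.9 (replicate 2) TPM. The catalytic subunit Stt3a had the highest mean, at 53.0 and 54.1 TPM, though Rpn1 (57.4 TPM) and Ost4 (56.7 TPM) were above it in replicate 2. Tusc3 was the lowest at 2.22 and 2.90 TPM. The ER membrane complex, which inserts membrane proteins, had median levels of 9.30 (replicate 1) and 8.30 (replicate 2) TPM. Its range ran from Emc9, at 0.49 and 0.80 TPM (2.15 and 2.42 TPM by kallisto), to Emc3, at 18.5 and 24.1 TPM. Of its 10 genes 2 were above 10 TPM in both libraries.

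Among genes for tail-anchored proteins, which enter the ER after translation without SRP, Bag6 was the highest of all partners at 115 TPM in replicate 1 and 130.2 TPM in replicate 2. Wrb, a receptor gene, was the lowest of that list at 1.26 and 1.07 TPM. Naca and Btf3, whose product covers the nascent chain at the ribosome and limits SRP binding to chains without a signal, were both high. Naca stood at 80.2 TPM in replicate 1 and 117.5 TPM in replicate 2, and Btf3 at 75.2 and 112 TPM. Among polymerase III genes and 7SL processing factors, Ssb, the La protein that binds the ends of new polymerase III transcripts, was the highest at 30.4 and 43.7 TPM. Polr3a, the largest polymerase III subunit, was the lowest at 4.12 and 3.89 TPM.

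**Figure D4:**
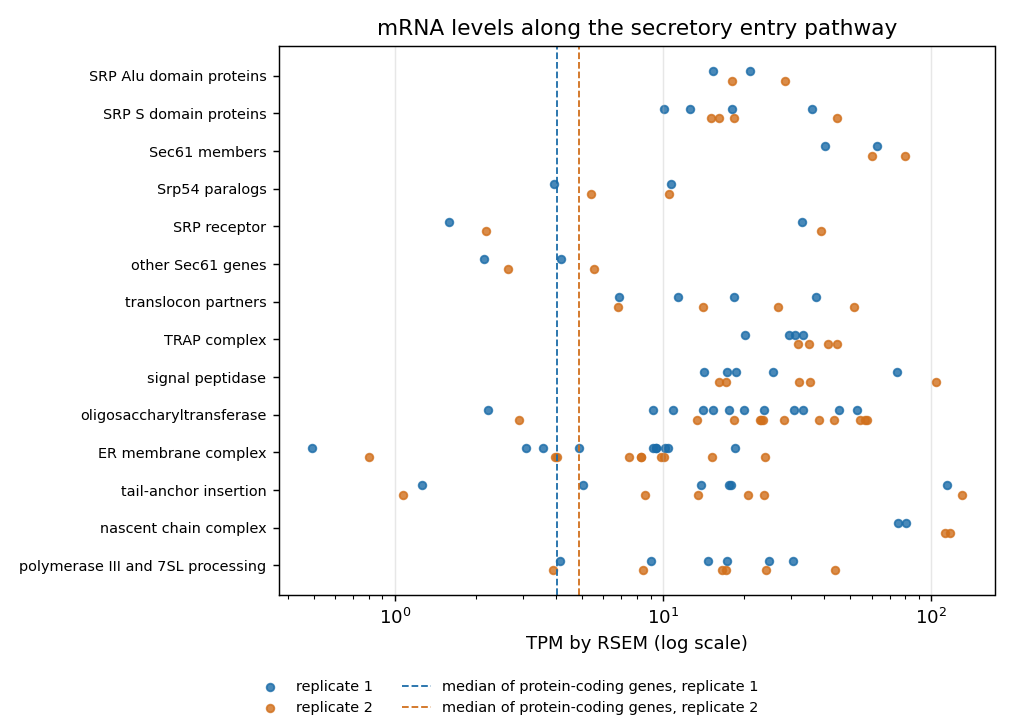
TPM by RSEM on a log scale (horizontal axis) of the SRP, Sec61 and partner mRNAs by role (vertical axis), 1 point per gene and library. Dashed lines mark the median of protein-coding genes above 0 TPM, 4.03 in replicate 1 and 4.87 in replicate 2, and all 8 SRP and Sec61 mRNAs lie to the right of them.

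To compare the libraries, each gene's rounded expected counts were given an exact binomial test, two-sided, with scaling by the trimmed mean of M values (TMM) and adjustment by the Benjamini-Hochberg method at 0.05. This compares 2 libraries, not conditions, and it takes account of counting error only. Of 15117 entries tested, 4846 passed, or 32.1%, and 3228 differed at least 1.5-fold, or 21.4%. The 10 genes make 9 entries, since Rn7s1 and Rn7s2 were summed. Of the 9, 4 passed, and 1, 7SL, differed at least 1.5-fold, so the first share is somewhat above that of all entries and the second below it. With 9 entries neither is a result about these genes as a set. Fewer cells of a type and less RNA per cell cannot be told apart in bulk RNA.

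7SL was 1.65-fold higher in replicate 1 than in replicate 2, a log2 ratio of 0.72. Scaling by the spike-in nearly removed this difference (log2 ratio -0.02). The 8 mRNAs had a median log2 ratio of -0.20, against 0.00 over all entries. The sign depended on the setting for Srp54a, which lay above 0 with total counts without 7SL, and for Srp68, which lay above 0 with kallisto counts. The other 6 lay below 0 under each setting tried. Of the 8, 3 passed. Sec61a1 had 2243 counts in replicate 1 and 2729 in replicate 2, a log2 ratio of -0.26 (exact binomial test, adjusted p = 1.57e-09). Sec61b had 372 and 508 counts, a log2 ratio of -0.43 (exact binomial test, adjusted p = 8.23e-05). Srp72 had 1097 and 1262 counts, a log2 ratio of -0.18 (exact binomial test, adjusted p = 0.00855). In genes with at least 100 counts the median absolute log2 ratio was 0.18, which Srp72 equalled and Sec61a1 and Sec61b passed. With kallisto counts Sec61b had a log2 ratio of -0.21 and did not pass, while Srp9, Srp19 and Srp54a did.

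The other 5 mRNAs did not pass the exact binomial test. Srp19 had 263 counts in replicate 1 and 321 in replicate 2, a log2 ratio of -0.27 with adjusted p = 0.0729. Srp14 had 310 and 363 counts, a log2 ratio of -0.21 with adjusted p = 0.151. Srp9 had 532 and 564 counts (log2 ratio -0.07), and Srp68 had 556 and 596 (log2 ratio -0.08). Srp54a had 623 and 631 counts, a log2 ratio of 0.00, but its reads are shared with Srp54b, whose log2 ratio was -1.04, and Srp54c, whose log2 ratio was 0.36. These ratios of the Srp54 genes carry the uncertainty of the division of reads, since the sum over the 3 genes was 1095 counts in replicate 1 and 1232 in replicate 2.

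Scaling by the ERCC spike-in nearly removed the difference in 7SL and widened that of the mRNAs. ERCC entries held 77771 counts in replicate 1 and 47031 in replicate 2, so per ERCC count 7SL had 24.6 counts in replicate 1 and 24.9 in replicate 2. The log2 ratio of 7SL was then -0.02, in place of 0.72. The 8 mRNAs had log2 ratios of -0.74 to -1.17, and 8 of 8 passed the exact binomial test and differed at least 1.5-fold. With this scaling 73.8% of all entries passed as higher in replicate 2 and the median over all entries was -0.74. Thus 7SL and the spike-in differed between the libraries by nearly the same factor, while the SRP and Sec61 mRNAs moved with the bulk of genes or somewhat beyond it. Which scaling reflects the amount per cell was not tested.

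**Figure D5:**
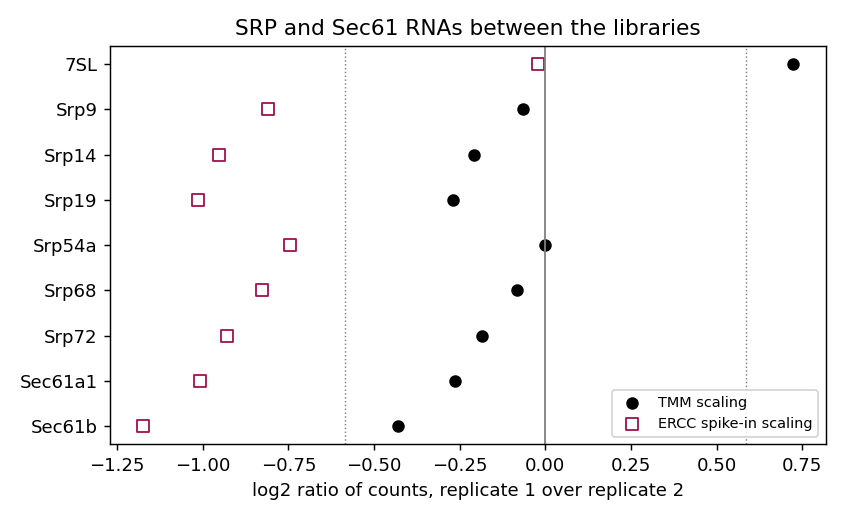
Log2 ratio of counts, replicate 1 over replicate 2 (horizontal axis), for 7SL and the 8 mRNAs, with filled circles for TMM scaling and open squares for ERCC scaling. Dotted lines mark 1.5-fold. 7SL stands at 0.72 with TMM and at -0.02 with ERCC, and the mRNAs lie left of 7SL under both scalings.

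With TMM scaling 21 of the 55 partners passed the exact binomial test, where 32.1% of all entries did. Of the 21, 17 were higher in replicate 2 and 4 higher in replicate 1, and those 4 (Brf1, Bdp1, Emc1 and Srp54c) passed as higher in replicate 2 with ERCC scaling. Of the 55, 4 differed at least 1.5-fold with TMM scaling, all higher in replicate 2. The median log2 ratio was -0.07. Partners with at least 100 counts that differed at least 1.5-fold were Srp54b and the oligosaccharyltransferase genes Tmem258 and Krtcap2. The other was Emc9, with 8 counts in replicate 1 and 14 in replicate 2, which did not pass the test. For Srp54b and Emc9 the kallisto counts went the other way, 179 and 82 in replicate 1 and 161 and 65 in replicate 2. Those of Tmem258 and Krtcap2 were higher in replicate 2 by kallisto too. Tmem258 had 167 counts in replicate 1 and 288 in replicate 2, a log2 ratio of -0.77 (exact binomial test, adjusted p = 2.89e-07). Krtcap2 had 138 and 233 counts, a log2 ratio of -0.74 (exact binomial test, adjusted p = 1.31e-05). In the TRAP complex 3 of 4 genes passed, all higher in replicate 2. Both nascent chain complex genes passed in that direction too. In the polymerase III list 2 of 6 passed, Brf1 (log2 ratio 0.25) and Bdp1 (0.19), both higher in replicate 1 with TMM scaling, while with ERCC scaling their log2 ratios were -0.50 and -0.55. They encode subunits of the initiation factor TFIIIB.

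Markers of some cell types also differed between the libraries. All 8 neutrophil markers passed the exact binomial test as higher in replicate 2, as did 2561 of all 15117 entries. Their log2 ratios ran from -0.03 (Csf3r) to -1.11 (S100a8). Of the 8, 2 differed at least 1.5-fold, where 21.4% of all entries did. Summed levels were 159 TPM in replicate 1 and 346 TPM in replicate 2 for 8 plasma cell markers, a cell type rich in ER. Igkc and Igha, with 70.7 and 75.97 TPM in replicate 1 and 182 and 137 TPM in replicate 2, made up most of both sums. Of these 8, Derl3 and Prdm1 were below 1 TPM in both libraries and Tnfrsf17 was listed at 0 in both. For 4 B cell markers the sum was 3.08 TPM in replicate 1 and 13.7 TPM in replicate 2, with 1 marker, Ms4a1, below 1 TPM in both. The 4 T cell markers summed to 0.56 and 0.53 TPM, each below 1 TPM. The 4 macrophage markers summed to 7.92 and 10.8 TPM, nearly all of it Adgre1. In counts Adgre1 hardly differed, with 430 in replicate 1 and 445 in replicate 2 (log2 ratio -0.03). It did not pass the exact binomial test. The 4 erythroid markers summed to 31.7 and 74.6 TPM, mostly Hba-a1, while Alas2 stood at 1.14 and 1.02 TPM. The 8 neutrophil markers themselves summed to 32872 (replicate 1) and 66937 (replicate 2) TPM. Thus the neutrophil, plasma cell, B cell, macrophage and erythroid sums of TPM were higher in replicate 2. So was the TPM of each of the 8 SRP and Sec61 mRNAs. The T cell sum was not. Protein-coding genes as a whole also took a larger share of TPM in replicate 2, 45.4% against 32.8%. The part of cell types other than neutrophils in the SRP and Sec61 levels was not tested.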

How the data were processed

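Total RNA-seq of spleen neutrophils was analysed from 2 libraries of 1 group. The authors deposited, per library, a gene table and a transcript table in the layout of RSEM, with expected counts, TPM, FPKM, isoform percent and a posterior SD, and a transcript table in the layout of kallisto, with estimated counts and TPM. Per the labels and the files' notes, the build was mm10 with GENCODE M21. Program versions and the aligner: not given in the sources used here. RSEM and kallisto therefore name layouts. Deposited FPKM, proportional to TPM within a library, was not used; rescaling to protein-coding genes, planned on FPKM, was done on TPM. For 7SL the RSEM table subtracts 100 nt to get the effective length. Depth was 18387963 expected counts in replicate 1 and 18090108 in replicate 2, and a count of 0 allows up to 3 counts.

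Levels are deposited TPM with the SD over n = 2. Kallisto values were summed per gene. Libraries were compared in entries with at least 10 rounded expected counts together, with 0.5 added to each count for the log2 ratio (replicate 1 over replicate 2), by SciPy 1.17.1 and edgeR 4.0.16 for TMM scaling; DESeq2 1.42.0 size factors, total counts, counts without 7SL, ERCC totals, kallisto counts and other added counts were alternatives. edgeR's quasi-likelihood test has no residual degrees of freedom here. The calculation was tested on simulated data. All members were named; of partners, the highest and lowest of each role and those at least 1.5-fold apart with at least 100 counts; the share of windows of 100 nt came from the GENCODE M21 transcripts. Sec11a, Rpn1, Ost4, Emc1, Brf1, Bdp1, Gm26461 and Emc9's ratio were named after their values were seen. Camlg and Srpra are listed partners not matched by symbol. Members and lists were chosen with earlier results of these data known. The sequence of 7SL is not reported here.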

Additional observations from a re-analysis of the deposited data

How the results depend on the processing

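The TPM of 7SL depended on the denominator, its share of counts on the quantifier and its ratio over the mRNAs on length. Its summed TPM was 490977 with only protein-coding genes and 7SL in the total, and its share of counts was 4.997% with kallisto counts. With full length in place of effective length the summed TPM was 330472, and by kallisto it was 427435, both within 1 SD of the mean. The log2 ratio of 7SL over the SRP protein median was 13.88 with full length and 11.38 with expected counts. The SRP protein median was 21.8 TPM by kallisto, 45.5 TPM over protein-coding genes alone, 20.7 TPM with the Srp54 genes summed and 11.2 TPM for protein-coding transcripts alone. The Sec61 median was 156 TPM over protein-coding genes and 39.7 TPM for protein-coding transcripts. The restriction to protein-coding transcripts, and total counts without 7SL, were chosen after seeing the data. Between the libraries, ERCC scaling gave 9 members passing the test and 8 at least 1.5-fold apart, where 75.1% of all entries passed and 70.8% were 1.5-fold apart. The log2 ratio of 7SL then fell to -0.021, close to no difference. With kallisto counts Sec61b no longer passed the exact binomial test (log2 ratio -0.21, adjusted p = 0.106), and Srp9, Srp19 and Srp54a passed. Srp19 also passed with total counts. DESeq2 size factors, total counts without 7SL, a minimum of 1 count and 1 or 5 added to each count changed no call of the 9 entries. The log2 ratio of Srp54a turned to 0.02 with total counts without 7SL, and that of Srp68 to 0.002 with kallisto counts, neither passing there. Leaving out either library kept each level within 1 SD of its mean, which with n = 2 holds by construction. No paired analysis was possible because there is 1 group. Low counts limit Rn7s6, Vaultrc5 and the Y RNAs, which held under 20 expected counts each per library. Effective length was only 43 nt for Vaultrc5, 12 nt for Rny1 and 2 nt for Rny3, and Rn7s6 shares windows with Rn7s1 and Rn7s2.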
